A study of Mus musculus with 3 samples.

Results

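Long-exon Zfp genes are zinc finger genes in which a single exon makes up most of the transcript. They were taken from the count table as the genes named Zfp plus a number whose longest exon, after merging overlaps, covered at least 50% of the exonic length, without Zfp36, Zfp36l1, Zfp36l2, Zfp42, Zfp352, Zfp750 and pseudogene names. This rule chose 312 of 49997 genes and used no measured count. A further 87 of the 399 Zfp genes fell below this limit, 17 of them only because the table lists their exons on a second sequence, such as an alternate contig, and sums the length over both. The 3 libraries analysed all came from the E14 line of mouse embryonic stem cells (ESCs) after 24 h of doxycycline (Dox). They comprised 1 input and 2 RNA immunoprecipitation (RIP-seq) libraries made with an antibody against YTHDF2. Per the description of the study, Dox switches on a Dux transgene in these ESCs, which also carry a tdTomato reporter under the MERVL promoter, and the input and the IP libraries share this background. Neither untreated cells nor an IP with a control antibody was analysed here, and the input has no replicate.

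Most C2H2 zinc finger proteins bind DNA through an array of fingers, short folds in which cysteines and histidines hold a zinc ion, joined by a conserved linker. Many mouse Zfp genes also encode a KRAB domain, which brings in TRIM28 and histone methyltransferases and silences retrotransposons. In a typical gene of this family small 5′ exons encode the KRAB domain, and the finger array, the stop codon and the 3′ end lie together in 1 long last exon. N6-methyladenosine (m6A) is found mainly in long internal exons and around stop codons, away from exon junctions, often within the letters GGACT, and YTHDF2 is a cytoplasmic protein that binds m6A and promotes mRNA decay. The comparison of IP with input asks which transcripts were recovered with YTHDF2 while DUX was active. It measures recovery in the IP and not methylation.

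Of the 312 genes, 303 were annotated as protein-coding, 6 as lncRNA and 3 as pseudogenes, so the name rule also took in antisense transcripts such as Zfp335os and Zfp85os. The longest exon had a median of 3429 bases, from 410 to 27302, and covered a median of 78.3% of the exonic length. It was the last exon in 278 genes and held the stop codon in 276. Translation of the longest RefSeq coding sequence gave a protein for 303 genes, with a median of 11 C2H2 fingers and at most 33 (Zfp619). At least 5 fingers were found in 262 genes and a KRAB pattern in 163. Zfp503, Zfp703, Zfp330, Zfp365, Zfp474, Zfp580, Zfp957 and Zfp972 had no match to the finger pattern.

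The repeated finger is visible in the sequence itself. The 84 bases of a single finger with its linker are shown for 3 of the most enriched and 3 of the most depleted members, because it is the form of finger from which the repeats of the family are built. Each lies in coding sequence within the longest exon, is given 5′ to 3′ on the sense strand from RefSeq GRCm38.p6 (the assembly of mm10), and is the first such unit of its gene. Capitals mark the letters AAACC, which mostly fall where the linker is encoded.
Zfp108: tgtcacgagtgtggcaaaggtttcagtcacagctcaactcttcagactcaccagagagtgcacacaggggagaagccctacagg
Zfp456: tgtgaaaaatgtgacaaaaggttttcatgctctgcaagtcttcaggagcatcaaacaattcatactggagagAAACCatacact
Zfp286: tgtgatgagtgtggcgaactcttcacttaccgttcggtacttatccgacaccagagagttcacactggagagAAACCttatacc
Zfp931: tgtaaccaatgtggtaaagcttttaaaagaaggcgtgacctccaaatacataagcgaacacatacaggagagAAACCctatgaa
Zfp980: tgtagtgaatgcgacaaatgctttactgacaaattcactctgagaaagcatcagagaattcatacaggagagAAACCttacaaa
Zfp971: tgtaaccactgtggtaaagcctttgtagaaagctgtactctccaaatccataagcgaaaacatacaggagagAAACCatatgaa
These units lie at chr7:24260832-24260915 on the plus strand (Zfp108), chr13:67366509-67366592 on the minus strand (Zfp456), chr11:62780436-62780519 on the minus strand (Zfp286), chr2:178068196-178068279 on the minus strand (Zfp931), chr4:145701459-145701542 on the plus strand (Zfp980) and chr2:178033006-178033089 on the plus strand (Zfp971). Zfp108 had AAACC in 0 of its 6 units of this form, Zfp286 in 1 of 4 and Zfp456 in its only 1, while Zfp931 had it in 6 of 6, Zfp980 in 6 of 6 and Zfp971 in 9 of 9. Zfp397, not shown, was more depleted than Zfp971 (log2 fold change -1.96 against -1.81). It had AAACC in 1 of its 2 units, and not in the first. Over the 218 members with such a unit there were 1261 units, of which 830 (65.8%) held AAACC and 53 (4.2%) held GGACT. Cut into windows of the same 84 bases, 16.5% of the exonic windows of the members held AAACC compared with 8.60% over all genes on the main chromosomes, and 6.85% held GGACT compared with 7.67%. Only the sense strand was searched, the letters of the 2 motifs cannot overlap, and a match is not evidence of an m6A site.

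Total counts were 36986994 for the input and 35259827 and 35888743 for IP replicates 1 and 2. All 8 ESC markers examined, among them Pou5f1 and Sox2, were abundant in every library, with a summed level of 7652 CPM (counts scaled to a common library total) for the input, 8446 for IP replicate 1 and 8421 for IP replicate 2. The 8 feeder fibroblast markers summed to 16.1 to 29.2 CPM, of which Col3a1 and Dcn had no count in any library. Each library is of bulk cells, so a transcript present in fewer cells and one at a lower level per cell cannot be told apart. The labels do not say whether the IP libraries came from separate cultures, so p-values measure only the spread between these 2 libraries.

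Transcripts of long-exon Zfp genes took a larger share of the IP libraries than of the input. They accounted for 238609 counts in the input, 0.645% of the total (95% Wilson interval 0.643 to 0.648). In IP replicate 1 they accounted for 376404 counts, 1.07% (1.06 to 1.07), and in IP replicate 2 for 369094 counts, 1.03% (1.03 to 1.03). These intervals cover counting error only, and with reads of both mates counted they are too narrow. Both IP libraries lay above the input and differed from each other by far less than from it.

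Gene by gene, 298 members passed the filter on low counts and 14 did not. In edgeR's quasi-likelihood test with Benjamini-Hochberg adjustment over all 19601 tested genes, a gene was called when its adjusted p was under 0.05 and its fold change over 2. By this rule 84 of the 298 tested members (28.2%) were enriched in the IP, beside 15.2% of all tested genes, and 10 (3.36%) were depleted, beside 14.0% of all. The enrichment of the 84 genes ranged from 2.00- to 5.67-fold with a median of 2.62-fold. Among the 204 members that were not called, a further 82 were higher and 25 lower at an adjusted p under 0.05 with a smaller fold, and 97 did not pass. In both IP libraries separately, 213 members (71.5%) lay above the input, 67 below it and 18 on either side, compared with 44.2% above in both among all tested genes. The median log2 fold change was 0.62 over the tested members (0.63 in IP replicate 1 and 0.59 in IP replicate 2 as single ratios) and 0.01 over all tested genes. With the dispersion set to 0.1, a value assumed because the input has no replicate, 26 members (8.72%) were enriched, beside 8.05% of all genes, and 9 were depleted, beside 7.81%, so that the excess of enriched calls was not seen there. The median of the members stayed at 0.63 in that fit.

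**Figure D1:**
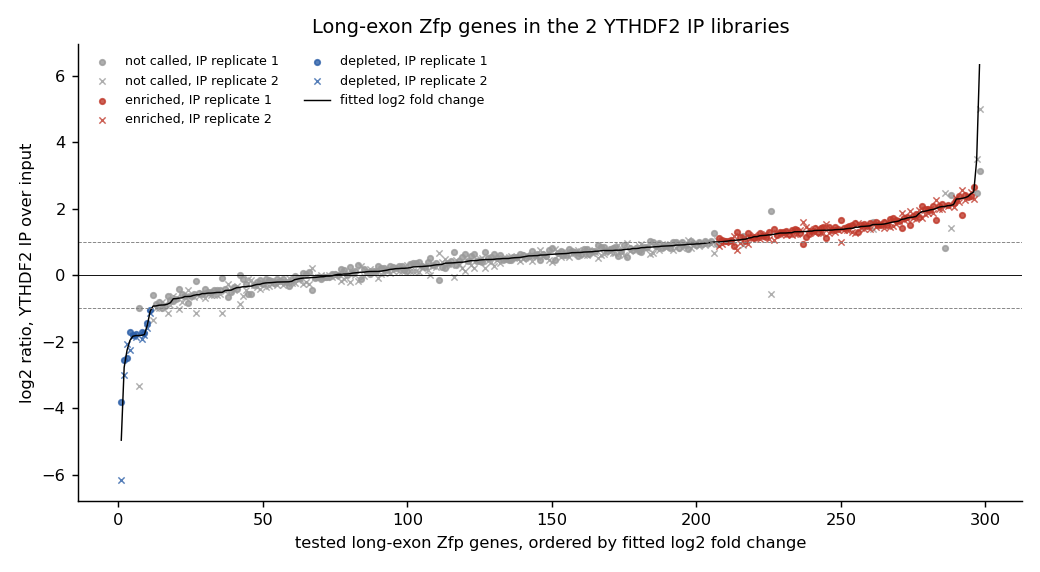
Log2 ratio of each YTHDF2 IP library to the input (y axis) for the 298 tested long-exon Zfp genes, ordered along the x axis by fitted log2 fold change (black line), with circles for IP replicate 1, crosses for IP replicate 2, red for the 84 enriched and blue for the 10 depleted genes. The grey points above the red range at the right end are genes with few counts, such as Zfp572 with 0 counts in the input, whose fitted value is no measure of size.

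The spread between the IP libraries was small where counts were high. The log2 ratios of the 260 members with a mean of at least 100 counts differed between the IP libraries with an SD of 0.20, and 1 of them differed by over 1 (Zfp994, 128 and 62 counts against 132 in the input). For the 38 members with fewer counts the SD was 0.92 and 6 differed by over 1. The input counts of the tested members had a median of 403, with the middle range from 191 to 877.

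The strongest enrichment by the fit without a GC correction belonged to Zfp108, Zfp628, Zfp33b, Zfp41, Zfp688, Zfp456, Zfp286 and Zfp775, the 8 highest among called members with at least 1 CPM on average. Zfp33b (chromosome 5, 104570575 to 104584620), the most abundant of them, had 1889 input counts against 9831 (replicate 1) and 10182 (replicate 2) in the IP. Its log2 fold change was 2.37 (SE 0.07, edgeR adjusted p = 1.41e-42), a 5.15-fold enrichment. Zfp628 (chromosome 7, 4915181 to 4922003), which is needed for male germ cell differentiation, had 490, 2599 and 2896 counts in the same order. Its log2 fold change was 2.45 (SE 0.12, edgeR adjusted p = 3.69e-31), but its exons overlap Nat14, and reads shared by overlapping genes were left out. In both genes the IP libraries lay far above the input and close to each other.

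Zfp41, with 606 input counts, reached 3280 and 2990 in the IP, a 5.03-fold enrichment (edgeR adjusted p = 1.38e-31). Zfp688, with 414 counts, had 2190 and 1992 (4.91-fold, edgeR adjusted p = 3.19e-27). Zfp286, with 370 counts, had 1715 and 1600 (4.36-fold, edgeR adjusted p = 6.31e-24). The largest fitted fold was that of the sparsest gene of this group, Zfp108, at 5.67-fold from 30 counts in the input against 196 and 155 in the IP (log2 fold change 2.5, SE 0.43). Zfp456 rose from 108 to 532 and 555 counts (4.89-fold), and its exons overlap Gm17039. Zfp775 rose from 333 to 1455 and 1461 counts (4.26-fold), and its exons overlap Gm38804. All 8 kept an adjusted p under 0.05 in every alternative that was run with a test, the fixed dispersion included. Their order depends on the GC trend, since with it removed Zfp628 had a log2 fold change of 1.499 in place of 2.45, Zfp775 of 1.51 in place of 2.09 and Zfp456 of 2.93 in place of 2.29.

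Depletion was rarer and less uniform in its support. Zfp367, an erythroid zinc finger gene (chromosome 13, 64133022 to 64153199), had 1533 input counts against 460 and 435 in the IP, a log2 fold change of -1.82 (SE 0.12, edgeR adjusted p = 2.64e-22). Zfp978 (chromosome 4, 147124882 to 147392027) had 4330, 1639 and 1493 counts, a log2 fold change of -1.51 (SE 0.08, edgeR adjusted p = 5.3e-28). Zfp931 fell from 243 counts to 42 and 31, and Zfp980 from 439 to 80 and 109. The input lay above both IP libraries in each of these genes.

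Zfp397 had 396 input counts against 123 and 86 in the IP, and its exons overlap Zscan30. Zfp971 had 419, 131 and 115 counts and Zfp943 had 215, 65 and 63. Zfp110, also known as NRIF1, a partner of the neurotrophin receptor p75, was the depleted member nearest the threshold, with 2227, 1106 and 1052 counts and a log2 fold change of -1.09 (SE 0.10). Its fold was under 2 after scaling to total counts or TPM and with the GC trend removed, and its call was lost at the fixed dispersion of 0.1 (adjusted p = 0.158). The remaining depleted genes were sparse, Zfp9 with 42, 12 and 12 counts and Zfp973 with 34, 2 and 0. Several depleted genes share stretches of sequence with other genes. Taking windows of 100 bases, 100% of the exonic windows of Zfp973 recur in the exons of another gene, 62.6% of those of Zfp980, 30.1% of Zfp978, 20.3% of Zfp931 and 8.45% of Zfp971. Reads that map to several places were not counted, so values of these 5 genes are uncertain, and without the members that share over 1% of their windows 5 depleted genes remained. Among the 8 most enriched members, Zfp456 (4.99%), Zfp33b (3.80%), Zfp41 (1.33%) and Zfp108 (1.05%) also share over 1%.

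**Figure D2:**
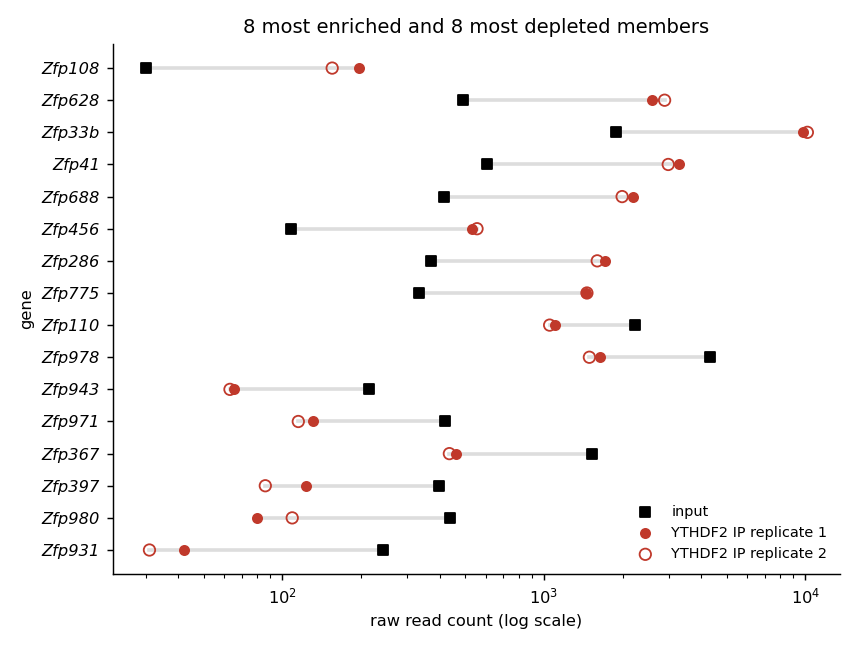
Raw read counts on a log axis (x) for the 8 most enriched and the 8 most depleted members with at least 1 CPM on average (y), with black squares for the input, filled circles for IP replicate 1 and open circles for IP replicate 2. The genes were chosen with both IP libraries on the same side of the input, and in every gene these lie nearer to each other than to it.

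Of the members listed for a known role, 15 passed the filter, and of these 4 were enriched (26.7%, beside 15.2% of all tested genes) and 1 depleted (6.67%, beside 14.0%), a further 6 rose and 1 fell with a fold under 2, and 3 did not pass the test. At the fixed dispersion of 0.1, 1 of the 15 was enriched (6.67%, beside 8.05% of all genes) and 0 depleted. Among regulators of pluripotency, Zfp322a, which promotes Pou5f1 and Nanog expression, had 1189 input counts against 2984 and 2898 in the IP. Its log2 fold change was 1.27 (SE 0.09, edgeR adjusted p = 1.78e-20), and the call was lost at the fixed dispersion of 0.1 (adjusted p = 0.127). Zfp281, a zinc finger factor that restrains Nanog and is needed for exit from the naive state, had 4920 input counts against 3432 and 3306 in the IP, a log2 fold change of -0.59 (SE 0.07, edgeR adjusted p = 2.62e-11). It carries 97.1% of its exonic length in 1 exon, and Zfp322a 88.7%. These 2 genes, each made up mostly of a single exon, lay on opposite sides of the input. With the GC trend of all genes removed, the log2 fold change of Zfp281 was -0.05 and that of Zfp322a 1.87, and at the fixed dispersion Zfp281 did not pass (adjusted p = 0.50).

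The listed members with a known role in silencing were all higher in the IP, each by a fold under 2, beside 71.5% of the members and 44.2% of all tested genes higher in both IP libraries. Zfp568, which represses a placental Igf2 transcript, had 5087, 6960 and 7050 counts (log2 fold change 0.42, SE 0.07). Zfp961, a KRAB zinc finger gene linked to the silencing of proviruses, had 4128, 6498 and 6264 (0.59, SE 0.07), and Zfp819, studied in male germ cells, had 241, 423 and 520 (0.93, SE 0.20). Zfp708, which binds a retrotransposon LTR, had 200, 413 and 324 (0.84, SE 0.22), and the KRAB pattern was not found in its RefSeq protein. All 4 passed an adjusted p of 0.05 in the edgeR fit, and none at the fixed dispersion (adjusted p from 0.287 to 0.661). With the GC trend removed, Zfp961 and Zfp708 passed the fold of 2 as well.

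Of the members known from signalling and differentiation, Zfp90, which can bind the repressor REST, rose from 497 to 1382 and 1230 counts (log2 fold change 1.35, SE 0.13, edgeR adjusted p = 1.18e-14), a call lost at the fixed dispersion (adjusted p = 0.103). Zfp521, a regulator of neural differentiation, rose from 30 to 97 and 152 counts (2.01, SE 0.46), and Zfp703, a corepressor known as a breast cancer oncogene, from 28 to 91 and 59 (1.38, SE 0.52). The call of Zfp703 rests on few reads and was lost in DESeq2 (adjusted p = 0.137, range over the alternatives up to 0.283). Its relative Zfp503 had 50, 90 and 69 counts and did not pass (adjusted p = 0.22). Zfp746, or PARIS, a repressor of PGC-1α, rose by 0.87 on the log2 scale (977, 1848 and 1836 counts), and Zfp24, which acts in myelination, by 0.58 (1449, 2458 and 1998). Zfp369, the second NRIF gene, had 1978, 1896 and 1859 counts and Zfp91, a ubiquitin ligase of the NF-κB pathway, 2079, 2208 and 2253, and neither passed the test. The difference between the paralogs Zfp110 and Zfp369 was not tested.

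The 4 most abundant members, among them Zfp33b, lay above the input in both IP libraries by very different amounts. Zfp207, or BuGZ, a kinetochore protein and the most abundant member at 326 CPM on average, had 11163 input counts against 12373 and 11717 in the IP, and did not pass (log2 fold change 0.07, SE 0.06, adjusted p = 0.299), whereas with the GC trend removed it was higher by 0.69 on the log2 scale. Zfp740, the next, rose from 4042 to 11641 and 12347 counts (2.89-fold, edgeR adjusted p = 3.06e-34), a call lost at the fixed dispersion (adjusted p = 0.0622). Zfp219, a cofactor of SOX9, rose from 4744 to 9237 and 9662 (1.94-fold). The 3 members with the longest exons were also unlike one another. Zfp521, with an exon of 27302 bases, was enriched, while Zfp407 (17844 bases; 857, 1002 and 793 counts) and Zfp697 (15010 bases; 64, 71 and 82 counts) did not pass, with log2 fold changes of 0.03 (SE 0.13) and 0.22 (SE 0.41).

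Values just inside and just outside the limit of the rule overlapped. Just inside it, Zfp219 (50.1% in the longest exon) had a log2 fold change of 0.95, Zfp607b (50.2%) of -0.10 and Zfp59 (50.5%) of 0.59. Just outside it, Zfp959 (49.2%) had 0.00, Zfp641 (49.2%, 10 counts in each library) -0.04 and Zfp512b (49.1%) 0.44. Of the 79 tested Zfp genes below the limit, 13 (16.5%) were enriched and 9 (11.4%) depleted, with a median log2 fold change of 0.33. This group is mixed. In 13 of its genes the longest exon covered 53.9% or more of the length on its own sequence, of which 2 were enriched and 4 depleted (median -0.13). Among them was Zfp3, with 146 input counts against 947 and 752 in the IP, whose longest exon covered 94.35% of 1 of its 2 listed copies. In the other 66, which had no dominant exon by either length, 11 (16.7%) were enriched and 5 (7.58%) depleted, with a median of 0.38 and a median GC content of 48.6%, compared with 44.1% for the members.

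Other C2H2 genes gave a similar order. Of 148 tested genes with at least 5 fingers, another name and a dominant exon, 31 (20.9%) were enriched and 7 (4.73%) depleted, with a median of 0.37. Of 54 without a dominant exon, 9 (16.7%) were enriched and 4 (7.41%) depleted, with a median of 0.20. Among the remaining protein-coding genes with several exons, 5808 had a dominant exon, of which 19.5% were enriched and 12.7% depleted (median 0.15), and 8310 had none, of which 10.8% were enriched and 14.1% depleted (median -0.13). By the length on 1 sequence, 52 and 8006 genes remained without a dominant exon, with medians of 0.15 and -0.14. No test was run between these groups, since genes are not replicates.

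The share of the longest exon had a weak relation to the IP signal over all 19601 tested genes (Spearman's rho = 0.09). Among genes not named Zfp, the median log2 fold change rose from -0.26 where the longest exon covered under 20% to 0.33 where it covered 80 to 90%, and was 0.01 at 90 to 100%, a class in which single-exon genes prevail. Zfp genes had medians of 0.51 (3 genes under 20%), -0.05, 0.18 and 0.43 in the ranges below the limit, and of 0.70, 0.73, 0.39, 0.59 and 0.70 in the ranges from 50% upward, with the length summed over all listed sequences. Within the members, the share itself had almost no relation to the log2 fold change (Pearson's r = 0.01, Spearman's rho = -0.01 over 298 genes). Depleted calls numbered 1 of 45 at 50 to 60%, 3 of 48, 4 of 60 and 2 of 87 in the next ranges, and 0 of 58 at 90% or more. These are values of genes measured in the same 3 libraries and not of independent samples.

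**Figure D3:**
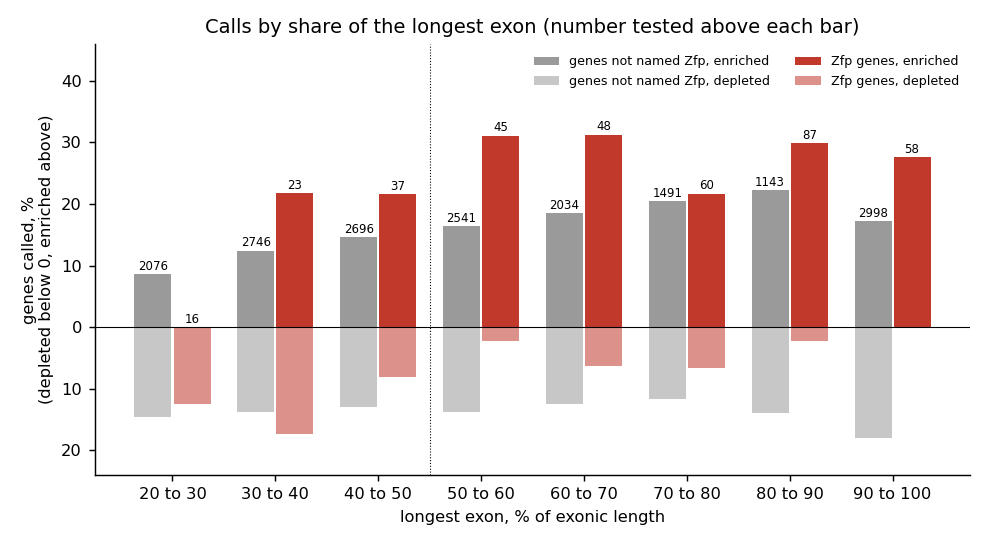
Share of genes called enriched (bars above 0) or depleted (bars below 0), in % of the tested genes on the y axis, by the share of the exonic length in the longest exon (x axis), for Zfp genes (red) and genes not named Zfp (grey), with the number tested above each bar and a dotted line at the 50% limit of membership. At 50 to 60% the enriched share was 31.1% of 45 Zfp genes and 16.5% of 2541 others.

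Of the features compared, base composition went furthest with the IP signal among the members. Over the 298 tested members, GC content of the exons and log2 fold change had Pearson's r = 0.39 and Spearman's rho = 0.44 (0.40 in IP replicate 1 and 0.47 in IP replicate 2), and over 18914 genes of all kinds Spearman's rho was 0.31. Of the 100 members with the lowest GC content (35.03 to 41.57%), 15 were enriched (15.0%, beside 15.2% of all tested genes) and 5 depleted (5.0%, beside 14.0%), with a median of 0.19. Of the 99 with the highest (47.0 to 63.5%), 47 were enriched and 0 depleted, with a median of 1.04. At the fixed dispersion these counts were 2 and 17 enriched, and with the GC trend removed 40 and 32. GC content thus moved with the IP signal, and apart from the fit with the GC trend removed its part in the result was not tested.

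In each range of GC content the median of the members lay above that of other genes, which is a description with no test. In the lowest range, 603 other protein-coding genes with several exons and a dominant exon had a median of -0.78, with 3.81% enriched, compared with 0.19 and 15.0% for the members. In the middle range, 1591 such genes had a median of -0.28 with 7.67% enriched, compared with 0.50 and 22.2%. In the highest range, 3556 had a median of 0.48 with 26.9% enriched, compared with 1.04 and 47.5%. With the GC trend of all genes removed, 111 members were enriched, beside 13.4% of all tested genes, 69 of them among the original 84, and the median of the members was 0.86, while that of all genes shifted by -0.04.

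**Figure D4:**
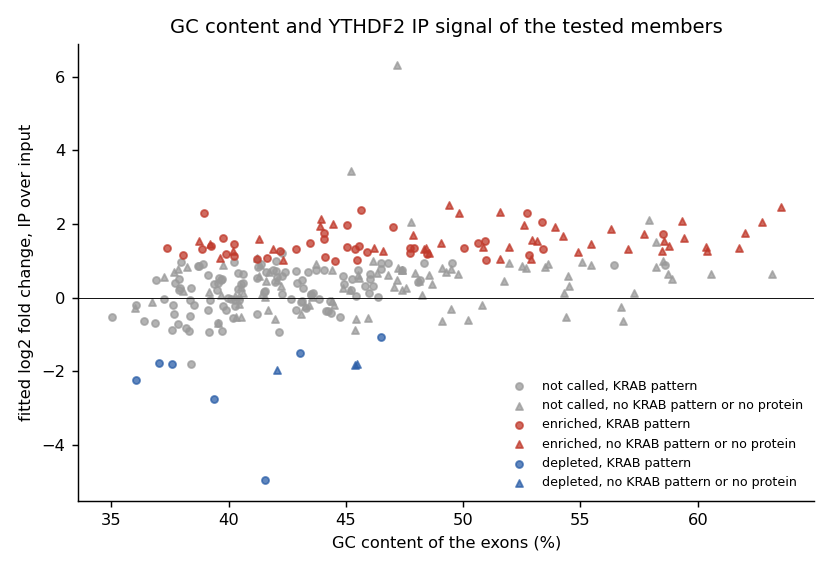
Fitted log2 fold change of IP over input (y axis) against the GC content of the exons in % (x axis) for the 298 tested members, with circles for proteins with a KRAB pattern and triangles for the others, red for enriched and blue for depleted. Depleted genes lie between 36.04 and 46.5% GC, and enriched genes span 37.4 to 63.5%.

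Motif density moved with base composition. GGACT, the core of the common m6A motif, had a median of 0.79 per kilobase in the tested members, compared with 1.01 in all tested genes, and its density had Spearman's rho = 0.18 with the log2 fold change and 0.37 with GC content. AAACC had a median of 2.01 per kilobase, compared with 0.97, and Spearman's rho = -0.21 with the log2 fold change and -0.70 with GC content. Of the 38 tested members whose finger units never held AAACC, such as Zfp108, 19 were enriched and 0 depleted (median 1.04, median GC 48.4%). Of the 64 in which every unit held it, such as Zfp931, 15 were enriched and 6 depleted (median 0.51, median GC 39.4%). Among all tested genes 15.2% were enriched and 14.0% depleted. The part of the motifs apart from GC content was not tested.

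The protein features went with smaller differences. The 157 tested members with a KRAB pattern comprised 39 enriched (24.8%) and 7 depleted genes (4.46%), at a median GC content of 42.1%. The 136 without it comprised 44 (32.4%) and 3 (2.21%), at a median GC content of 47.7%. Among all tested genes 15.2% were enriched and 14.0% depleted. The number of fingers had Spearman's rho = -0.02 with the log2 fold change over 293 genes, and the number of exons -0.14. The longest exon was the last in 267 tested members, of which 76 (28.5%) were enriched, and lay elsewhere in 31, of which 8 (25.8%) were. Exons of 67 tested members overlap those of another gene, and 21 of them (31.3%) were enriched. Since counting ignored strand, a read over the exons of a gene and of its antisense partner was assigned to neither, and elsewhere antisense reads count toward the gene they cover. This concerns Zfp335os, the enriched lncRNA with 18, 50 and 69 counts, which overlaps Zfp335.

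Runs of at least 5 tested members whose starts lie close together held 167 of the 298 tested members, in 17 clusters on 9 chromosomes. Of these 167, 57 were enriched and 5 depleted. At the fixed dispersion of 0.1, 17 (10.2%) were enriched, beside 8.05% of all genes. Chromosome 7 held 81 of the tested members, with a median of 0.87. There 36 (44.4%, beside 15.2% of all tested genes) were enriched and 1 (1.23%, beside 14.0%), Zfp110, was depleted. Elsewhere 48 of 217 (22.1%) were enriched, with a median of 0.47. In the cluster from 127233061 to 127885996 on chromosome 7, with Zfp553, Zfp771, Zfp768, Zfp747, Zfp764, Zfp688, Zfp689, Zfp629 and Zfp646, 7 of 9 genes were enriched and all 9 were higher in both IP libraries (median 1.23, median GC 54.3%). With the GC trend removed the median of this cluster was 0.95. Between 6131489 and 7209998 on the same chromosome 7 of 10 were enriched (median 1.29), among them Zfp28 with 188, 812 and 639 counts and Zfp787 with 293, 1062 and 987. The other 6 clusters of the chromosome had smaller enriched shares, down to 2 of 12 genes (16.7%) between 24081877 and 25227876 and 2 of 10 between 41633531 and 43618279. The 16.7% is near the 15.2% of all tested genes. On chromosome 15, 5 of the 6 members between 75615200 and 76925693 were enriched (median 1.55, and 1.21 with the GC trend removed), including Zfp41.

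The large clusters of chromosomes 13 and 17 are both low in GC content. On chromosome 13, 8 of 22 members (36.4%, beside 15.2% of all tested genes) between 66670274 and 67827000 were enriched and 0 depleted. Their median was 0.88 at a median GC content of 39.4%. There Zfp87 had 338 input counts against 1446 and 1291 in the IP, and Zfp874b had 324, 1090 and 927. On chromosome 17, 2 of 22 members (9.09%) between 21008941 and 23599755 were enriched and 1 (4.55%) depleted, beside 15.2% and 14.0% of all tested genes. Their median was -0.11 at a GC content of 38.5%. That median became 0.53 with the GC trend removed, when that of the chromosome 13 cluster became 1.502. The difference between clusters was not tested. Over all 11 tested members of chromosome 4 the median was -0.52, and it turned to 0.25 with the GC trend removed.

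**Figure D5:**
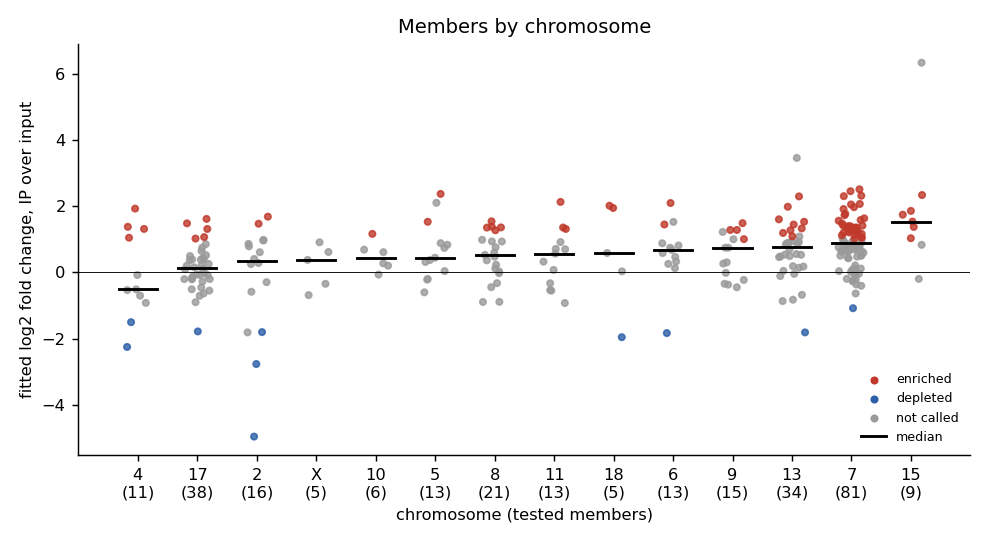
Fitted log2 fold change of IP over input (y axis) of the tested members on each chromosome with at least 5 of them (x axis, number in parentheses), ordered by median, with red for enriched, blue for depleted and grey for genes not called, and black bars for medians. Medians run from -0.52 on chromosome 4 to 1.53 on chromosome 15, and the grey point at the top of chromosome 15 is Zfp572, which had 0 input counts against 4 and 16 in the IP.

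Most of the cofactors through which KRAB zinc finger proteins silence chromatin were lower in the IP by the edgeR fit. Of 25 listed genes, all tested, 1 (4%) was enriched, beside 15.2% of all tested genes, and 10 (40%) were depleted, beside 14.0%. Their median log2 fold change was -0.86, and 22 were lower in both IP libraries, as were 8872 of the 19601 tested genes. At the fixed dispersion of 0.1, 4 remained depleted (Cbx3, Hdac1, Hells and Mphosph8), beside 7.81% of all genes, and 0 enriched. Trim28, the shared corepressor, had 64304 input counts against 32153 and 33968 in the IP, a log2 fold change of -0.9999 (SE 0.04, edgeR adjusted p = 3.19e-33) that fell just short of a fold of 2, and was -1.61 with the GC trend removed. In that fit 4 of the 10 depleted cofactors had a fold under 2 (Atrx, Cbx1, Cbx5 and Morc3), and Atf7ip and Tasor turned from below 0 to 0.32 and 0.16. Going the other way, Mta2 (-1.095) and Uhrf1 (-1.10) passed the threshold for depletion there, as did Trim28. Cbx3, a heterochromatin protein, fell from 4969 to 738 and 652 counts, and Hells, a chromatin remodeler, from 10842 to 2398 and 2263. Daxx, a histone H3.3 chaperone, was the enriched gene, with 4113, 10928 and 11125 counts. The longest exon covered a median of 28.1% of the exonic length in these cofactors.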

How the data were processed

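Samples were grouped by their titles. The authors trimmed reads with fastp 0.19.4 and aligned them with HISAT2 2.2.1 (processing notes and methods), and the deposited values are raw counts per gene from featureCounts 2.0.3 with the RefSeq exons of mm10, and per the file headers with mates counted singly (even numbers made up 61.4 to 64.7% of counts from 1 to 100) and no strand option. Reads with several places or genes were left out by default. The sources disagree on whether the IP used cell lysate or Trizol RNA. DESeq2 1.40.2 is the tool named for the calls of the study.

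Here counts were fitted with edgeR 4.0.16 in R 4.3.3 (filterByExpr, TMM, robust glmQLFit and glmQLFTest, 1 residual degree of freedom from the IP libraries, Benjamini-Hochberg adjustment), and the procedure was tested on simulated data. SE is the log2 fold change over the root of F. Single ratios use effective library sizes and a pseudocount of 0.5. GC content, motifs, windows of 100 bases and translated proteins come from the merged exons and RefSeq GRCm38.p6, where all 312 genes had the same start and end as in the table. Other genes of the family were taken at 5 or more fingers. Clusters are runs of at least 5 tested members whose starts lie within 1 Mb.

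The members and lists were chosen with earlier results of these data known. The genes named are members with listed roles, the 8 highest and 8 lowest called members with the same sign in both IP libraries and at least 1 CPM, the 4 most abundant, 3 on each side of the 50% limit and the 3 with the longest exons. Others were chosen after their values were seen. Alternatives were other scalings (DESeq2 size factors, total counts, TPM), DESeq2 1.42.0, the low-count filter, a fixed dispersion, halved counts, GC and length trends removed, membership and each IP library left out. The fitted value of Zfp572, at 0 counts in the input, depends on the prior count of 0.125. With that gene at the bound set by 3 counts, the median of the members was again 0.62.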

Additional observations from a re-analysis of the deposited data

How the results depend on the processing

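The median of the members stayed above 0 in every setting, but the excess of enriched calls over all genes was absent at a fixed dispersion of 0.1, and with the GC trend removed the medians of chromosome 4 and of the chromosome 17 cluster turned from below 0 to above it. The median log2 fold change of the members was 0.62 and became 0.72 with total count scaling, 0.78 with TPM scaling, which moved the median of all genes by 0.15, and 0.86 with the GC trend removed, and it lay between 0.59 and 0.64 when either IP library was left out (values with no test, since no residual degree of freedom is left). Enriched members numbered 76 to 111 in the other fits across all genes and 26 at a fixed dispersion of 0.1, 24 of them shared with the 84. Other rules of membership (40% or 60% in the longest exon, no overlapping genes, protein-coding genes) gave 63 to 92. Depleted members numbered 8 to 13 in all these, and 5 without members that share over 1% of their windows, an alternative chosen after seeing the data, as were the limit applied to the length on 1 sequence (86 enriched, 14 depleted, median 0.60) and the earlier quasi-likelihood method of edgeR (83 and 10). For Zfp genes without a dominant exon the median of 0.33 became 0.48 with TPM scaling. For other C2H2 genes with a dominant exon the median of 0.37 became 0.47 with total count scaling, 0.52 with TPM scaling, 0.60 at a mean of at least 100 counts, 0.79 with the GC trend removed and 0.33 with the length trend removed, and it lay between 0.38 and 0.41 without 1 of the IP libraries. Of the 40 named genes, Zfp110, Zfp322a, Zfp703, Zfp740 and Zfp90 lost their call at that dispersion. Of the KRAB cofactors, the 1 enriched gene (Daxx) was lost there as well, leaving 0, and 4 of the 10 depleted ones remained. Spearman's rho of the members with GC content was 0.01 after removal of the GC trend, as that step is built to do. No paired analysis was possible because both IP libraries share a single input. Members under about 100 counts are limited by depth.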

Other observations

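At the distal end of chromosome 4, 5 tested members lie between 145510759 and 147516064, and all 5 were lower in both IP libraries, each with an edgeR adjusted p under 0.05, while 4 of the other 6 tested members of the chromosome were enriched. Zfp990 had 6264 input counts against 3879 and 4018 in the IP, Zfp982 had 2008, 1122 and 1052, and Zfp991 had 736, 547 and 510, beside the depleted Zfp978 and Zfp980. The other C2H2 genes of the stretch, Gm13212 and Rex2, were lower as well, of which Rex2 was depleted (log2 fold change -1.25). Exons of Rex2 overlap those of Zfp985, and reads shared by both were left out. Of the tested Zfp genes of the stretch below the 50% limit, Zfp993 was depleted, with 3250, 1504 and 1404 counts. Zfp985, whose longest exon is listed on another sequence of chromosome 4, did not pass (log2 fold change -0.04, edgeR adjusted p = 0.68). Zfp534, Zfp979, Zfp984 and Zfp987 also have their longest exon on such sequences and were not placed here. Zfp988, which lies between 147305604 and 147334067 and is below the limit only through its second listed sequence, was higher, with 4450, 7279 and 6421 counts (log2 fold change 0.58, edgeR adjusted p = 1.16e-10). The stretch was picked after its values were seen. With the GC trend removed, Zfp990 had a log2 fold change of 0.01, Zfp991 of 0.25 and Zfp982 of -0.29, Gm13212 of -0.05, and Rex2 at -0.51 was no longer called, while Zfp978 and Zfp980 remained depleted at -1.04 and -1.52. Of the exonic windows of Zfp991, 78.3% recur in another gene.

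Neighbours on chromosome 2 were split. Between 175918283 and 178078425, Zfp973, Zfp971 and Zfp931 were depleted, while Zfp970 had 677 input counts against 1348 and 1392 in the IP (log2 fold change 0.98, edgeR adjusted p = 5.95e-11). Of 13 other C2H2 genes nearby, 2 were enriched (15.4%, beside 15.2% of all tested genes) and 2 depleted (15.4%, beside 14.0%), with Gm14305 at -2.56 and Gm14326 at 1.25. With the GC trend removed, Gm14295 (1.36) and Gm14325 (1.52) also passed the threshold, as did Zfp970 (1.58). All members here share windows with other genes, from 8.45% upward, and Zfp966 (14, 7 and 1 counts) and Zfp973 share all of theirs.

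The 14 members that did not pass the filter had at most 10 counts in any library, and 4 of them (Zfp648, Zfp683, Zfp804b and Zfp981) had none. Among them were Zfp965 and Zfp967, whose exonic windows all recur in another gene, so that a count of 0 to 8 there is no measure of expression.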
